A study of Mus musculus with 60 samples.

Results

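Selenbp1, Selenbp2, Selenop, Gpx1 and Gpx4 are 5 of the 38204 genes measured by RNA sequencing in mouse liver. They were chosen by name, with their RPKM differences in these libraries already in view, so their differences between irradiated and control mice are given as descriptions with no test. The level of a gene is the sum over its transcripts of the RPKM, the reads of a transcript relative to its length and to the mapped reads of the library. The livers came from 60 male C3H/HeNCrl mice, an inbred strain sensitive to the induction of hepatocellular carcinoma, exposed over the whole body at 8 to 10 weeks of age to 0.2 Gy of 56Fe, 16O or 28Si ions or left unirradiated as controls. The left lobe was taken at 1, 2, 4, 9 and 12 months from 3 mice in each of the 20 groups, and the 3 ions of a time point share its 3 control mice.

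Selenoproteins carry selenocysteine, an amino acid inserted at a UGA codon that would otherwise end translation, and the liver makes most of the selenium carrier of the blood, selenoprotein P, from the gene Selenop. Gpx1 encodes the cytosolic glutathione peroxidase that reduces hydrogen peroxide, and Gpx4 the peroxidase that reduces lipid hydroperoxides in membranes and so protects cells from ferroptosis. Selenbp1 and Selenbp2 encode close paralogs that bind selenium without containing selenocysteine. Selenbp1 oxidises methanethiol, and Selenbp2 is known in mouse liver as an acetaminophen-binding protein whose gene is more active in males.

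The 5 genes lie on the plus strand of 4 chromosomes in the GRCm38 build. Selenbp2 occupies chr3:94693556-94704413 and Selenbp1 chr3:94933056-94944758, with 228642 bases between them. Selenop lies at chr15:3268547-3280508, Gpx1 at chr9:108338903-108340343 and Gpx4 at chr10:80047166-80056439. In the GENCODE M21 annotation 24 genes carry a selenocysteine codon, among them 3 of the 5 described here, with 10 such codons in Selenop and 1 each in Gpx1 and Gpx4. The codons are shown with their neighbouring bases because they separate the selenoproteins from the selenium-binding proteins. The capitals mark the TGA that is read as selenocysteine, at chr9:108339451-108339453 in Gpx1, chr10:80054737-80054739 in Gpx4 and chr15:3274848-3274850 for the codon nearest the start of Selenop.
Gpx1: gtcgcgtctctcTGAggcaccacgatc
Gpx4: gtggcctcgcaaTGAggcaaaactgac
Selenop: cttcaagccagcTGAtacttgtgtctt

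The bases of the selenocysteine codon lie in the first exon of the isoform Gpx1-202 too, but its annotated coding sequence starts 27 bases after them. Only Gpx1-201 is annotated with the codon in its coding sequence. The exons of Gpx1-202 join at a splice site 3 bases further on than in Gpx1-201, which does not touch the codon. The 2 junctions are shown because the share of these isoforms differed between groups. Both start with the bases at chr9:108339544-108339558. Gpx1-201 continues at chr9:108339777-108339791 and Gpx1-202 at chr9:108339780-108339794. The capitals mark the bases that only Gpx1-201 has.
Gpx1-201: cagttcggacaccagGAGaatggcaagaat
Gpx1-202: cagttcggacaccagaatggcaagaatgaa

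The paralogs Selenbp1 and Selenbp2 differ little in sequence but behaved differently after irradiation, so the bases just upstream of each are shown from RefSeq GRCm38.p6, with capitals where the pair differs. These are chr3:94932833-94933055 for Selenbp1 and chr3:94693323-94693555 for Selenbp2. In their alignment 201 bases were identical, 20 were substituted and 14 columns held a gap, so 91.0% of paired bases were identical.
Selenbp1: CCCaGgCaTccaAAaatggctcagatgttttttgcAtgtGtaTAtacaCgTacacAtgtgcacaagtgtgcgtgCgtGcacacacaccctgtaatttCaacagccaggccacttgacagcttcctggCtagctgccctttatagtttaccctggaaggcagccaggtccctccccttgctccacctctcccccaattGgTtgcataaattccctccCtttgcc
Selenbp2: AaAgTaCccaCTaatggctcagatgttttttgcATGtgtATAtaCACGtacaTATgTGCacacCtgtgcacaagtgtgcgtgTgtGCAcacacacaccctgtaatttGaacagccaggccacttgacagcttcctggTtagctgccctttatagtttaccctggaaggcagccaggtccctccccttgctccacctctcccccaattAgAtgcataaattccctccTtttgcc

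RefSeq promoter windows around the transcription start were found for 5 of the 5 genes. On both strands they held no match to TTCNNNGAA, the paired half-sites of STAT5, which 8.5% of 27025 promoters hold, and none to TGACNNNGC, the core of the antioxidant response element, which 12.5% hold.

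Reads that fit more than 1 of these genes limit what the values can say. The transcripts Selenbp1-201 and Selenbp2-201 were identical at 98.2% of paired bases, with 1682 identical and 30 substituted. Of all 36-base stretches, the read length left after trimming, 63.0% in Selenbp1-201 and 62.7% in Selenbp2-201 also occur in the other gene, so for most of their length the level of each rests on how the authors' mapping assigned shared reads. In Gpx4-202, 72.4% of such stretches also occur in the pseudogene Gpx4-ps2, which was not analysed here. The last 439 bases of Selenop overlap the antisense gene Ccdc152, and whether the counting used strand is not given in the sources used here. Ccdc152 had a mean of only 2.07 RPKM over the 60 libraries.

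The libraries held 11412665 to 40568208 mapped read pairs, with a median of 18891345. Over the libraries the reads behind a gene came to 1001 to 5700 for Selenbp1, 245 to 8786 for Selenbp2, 22010 to 155620 for Selenop, 5134 to 40685 for Gpx1 and 601 to 6912 for Gpx4. Of the mapped reads a median of 52.9%, 56.9%, 81.8%, 83.9% and 78.1% lay in transcripts at 1, 2, 4, 9 and 12 months, so levels at 1 and 2 months were measured against a larger share of other reads. Hepatocyte markers were present as labelled, 12 of 12 with a summed level of 20200 to 60000 RPKM, beside 44.9 to 770 RPKM for Kupffer cell markers and 28.6 to 548 RPKM for erythroid markers. No marker was at 0 in every library. In whole liver, fewer cells of a type and less RNA per cell cannot be told apart.

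Selenop was the most abundant of the genes, with 1636 ± 648 RPKM in control liver (SD, n = 15 mice over the 5 times), which placed it at rank 27 of the 26164 genes above 0. Gpx1 followed with 773 ± 273 RPKM, Gpx4 with 138 ± 77.9 RPKM, Selenbp1 with 70.3 ± 22.3 RPKM and Selenbp2 with 51.1 ± 37.9 RPKM. Among the 24 selenoprotein genes, Selenop held 49.2% ± 2.58 and Gpx1 24% ± 2.61 of the summed RPKM of control livers, against 8.79% ± 1.20 for Sephs2, which makes the selenium donor for selenocysteine synthesis. Msrb1, a methionine sulfoxide reductase, and Selenof, a selenoprotein of the endoplasmic reticulum, held 3.79% and 2.64%, near the 3.87% ± 1.02 of Gpx4. Selenop, Gpx1 and Gpx4 together took 73.4% to 79.8% of the selenoprotein RPKM over the 60 libraries. The hepatic selenoprotein transcript pool was thus held mostly by the same 3 genes in every library, irradiated or not.

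The genes also differed in how much mice of a group varied. The coefficient of variation within a group had a median of 32% for Selenbp2, with a range of 4.72% to 79.4%, against medians of 10.4% for Gpx4, 10.6% for Selenop, 12.1% for Selenbp1 and 15% for Gpx1. Between the lowest and the highest library Selenbp2 spanned 14.1-fold, and Selenbp1, its paralog, 3.01-fold. Selenbp2 was therefore the gene whose group means rested most on single mice.

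**Figure D1:**
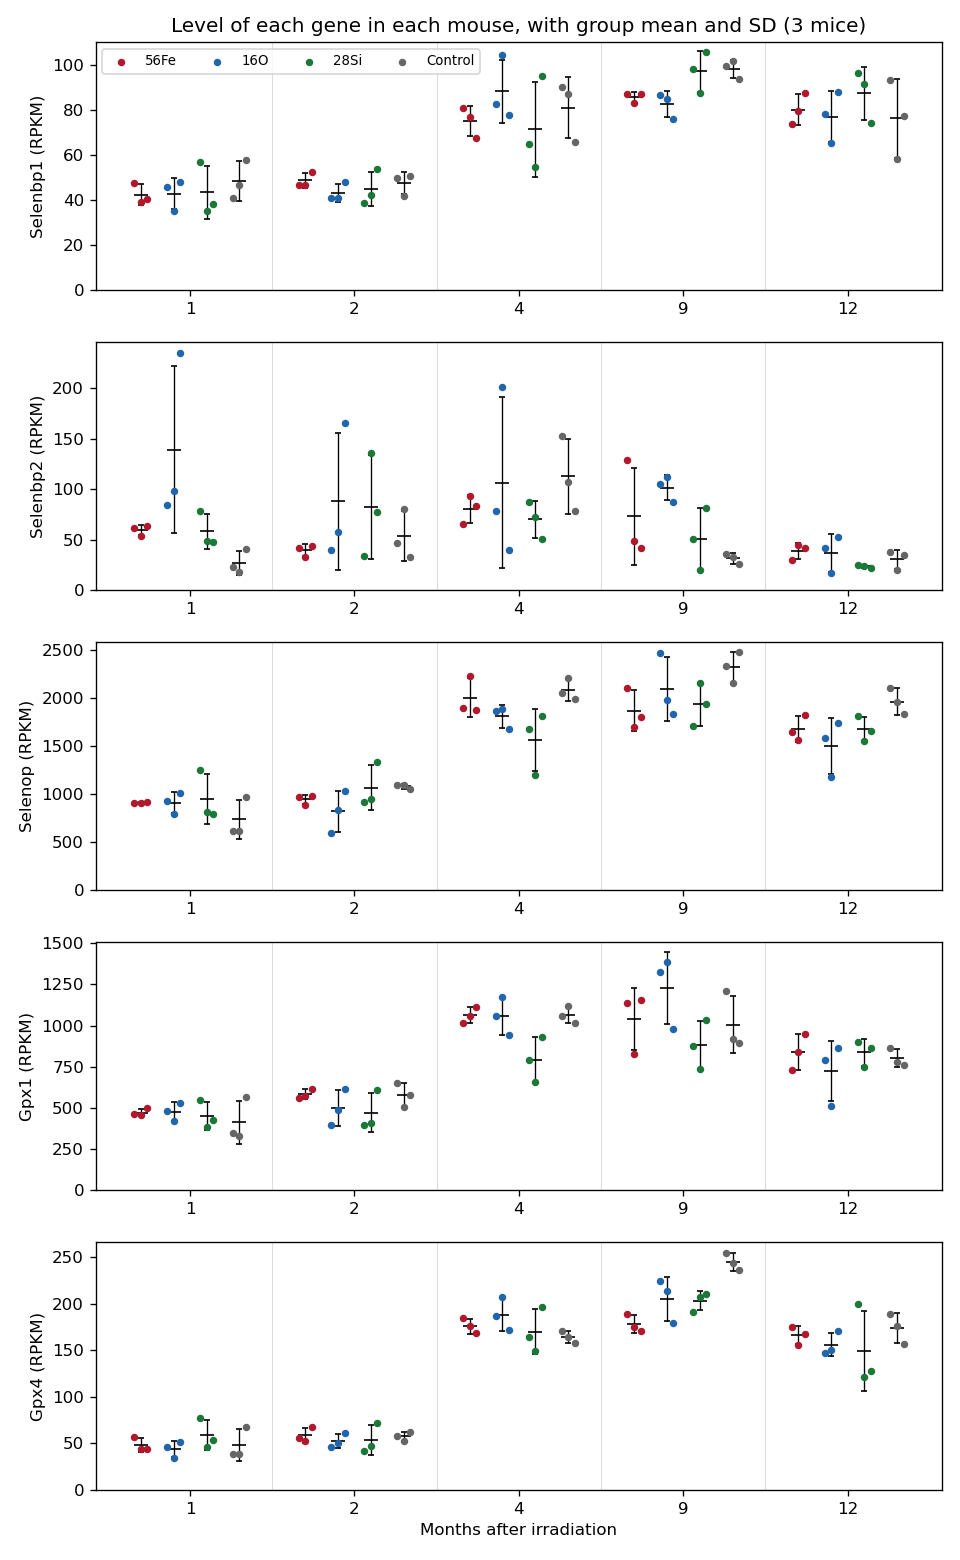
RPKM (vertical axes) of Selenbp1, Selenbp2, Selenop, Gpx1 and Gpx4 against months after irradiation, where each point is 1 mouse, horizontal bars are group means and error bars are 1 SD of 3 mice, in the order 56Fe, 16O, 28Si and control. Selenop, Gpx1 and Gpx4 stand lower at 1 and 2 months than later in every group, while Selenbp2 reaches 234.6 RPKM in 1 16O mouse at 1 month and 17.7 RPKM in 1 control mouse.

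The 5 genes gave 75 pairs of a gene and a comparison of an ion with control. On libraries scaled by a trimmed mean, the 3 irradiated and the 3 control mice did not overlap in 22 of them, with irradiated mice higher in 10 and lower in 12. On the RPKM as deposited 18 of the 22 did not overlap either, the exceptions being Selenop with 56Fe and 16O at 1 month and Gpx4 with 56Fe and 28Si at 4 months. Selenop with 16O at 2 months and with 28Si at 12 months was lower without overlap on the RPKM as deposited but not on the scaled libraries. With 56Fe, 2, 1, 1, 4 and 1 of the 5 genes did not overlap at 1, 2, 4, 9 and 12 months, beside 18.4%, 18.1%, 16.9%, 31.6% and 8.36% of all genes tested. With 16O these were 2, 0, 2, 3 and 1 of 5, beside 18.6%, 15.1%, 11.7%, 20.3% and 7.92% of all genes. With 28Si they were 1, 0, 3, 1 and 0 of 5, beside 17%, 12.4%, 17.1%, 19.5% and 13% of all genes. The genes were listed with these values in view, so nothing is read from the counts. Under upper quartile scaling the median log2 fold change of all genes was 0.31 for 28Si at 4 months, against -0.10 under the trimmed mean, and differences of 28Si are to be read relative to that shift.

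**Figure D2:**
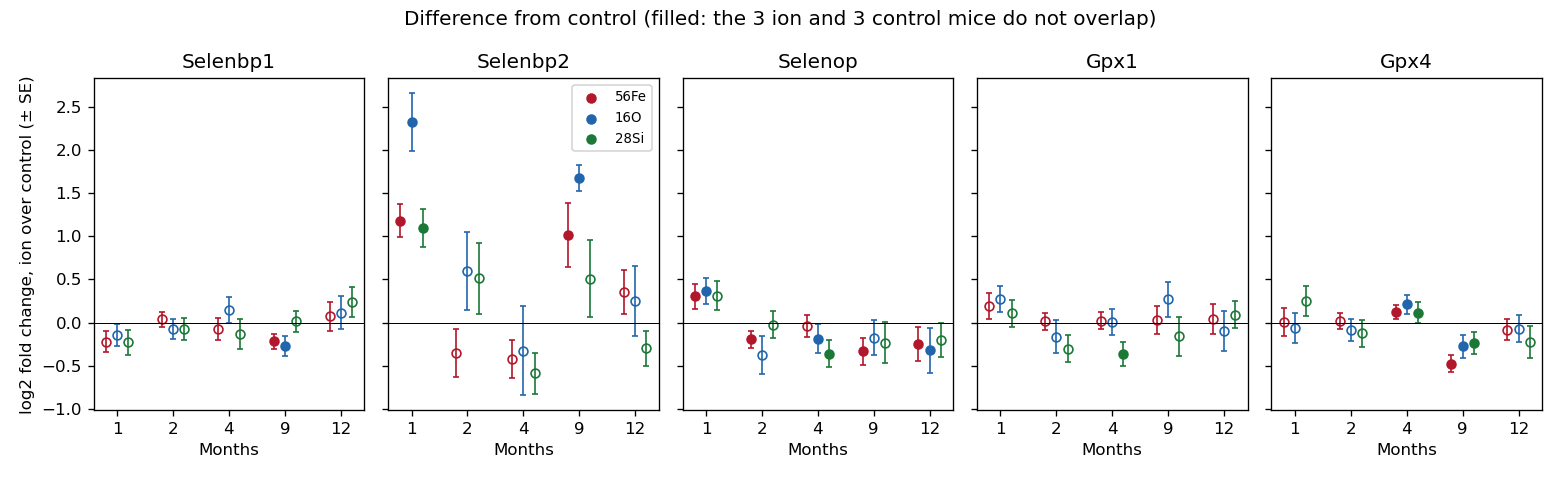
Log2 fold change of an ion over control (vertical axis, shared) for each gene against months, for 56Fe, 16O and 28Si with 3 irradiated and 3 control mice each, where error bars are 1 SE and filled points mark groups that do not overlap. Selenbp2 stands at 1.18, 2.32 and 1.09 at 1 month, while the other 4 genes stay between -0.48 and 0.37 at every time.

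Selenbp2 was higher in irradiated than in control liver at 1 month with each ion. It had 61.7, 53.6 and 63.35 RPKM with 56Fe, 84.2, 98.7 and 234.6 RPKM with 16O and 78.4, 48.6 and 47.6 RPKM with 28Si, against 23.1, 17.7 and 40.5 RPKM in control mice. Every irradiated mouse lay above every control mouse, and 16O replicate 3 stood furthest out. On the log2 scale the fold change was 1.18 ± 0.19 (SE, n = 3 mice each) with 56Fe, 2.32 ± 0.33 with 16O and 1.09 ± 0.22 with 28Si, that is 2.27-fold, 5-fold and 2.14-fold. Leaving out any 1 library gave 0.96 to 1.42 with 56Fe, 1.89 to 2.63 with 16O and 0.88 to 1.32 with 28Si. The groups stayed apart on this gene in a month when mitochondrially encoded mRNAs also stood apart in part, with summed levels of 31600 to 55200 RPKM with 56Fe, 34000 to 42600 RPKM with 16O and 19300 to 23100 RPKM with 28Si, against 21000 to 33600 RPKM in control mice. Their part in the result was not tested.

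At 2, 4 and 12 months Selenbp2 overlapped between each ion and control. At 2 months it had 42.1, 33 and 43.6 RPKM with 56Fe, 40.2, 57.7 and 165.9 RPKM with 16O and 33.6, 135.9 and 77.2 RPKM with 28Si, against 47.1, 80.9 and 32.7 RPKM in control mice. At 4 months the control mice reached their highest level of the gene, and it had 65.5, 93.0 and 83.6 RPKM with 56Fe, 78.8, 201.7 and 39.4 RPKM with 16O and 87.4, 72.1 and 51.1 RPKM with 28Si, against 152.7, 107.2 and 78.3 RPKM in control mice. Single mice, such as 16O replicate 2 at 4 months, set the group means at these times. At 12 months it had 29.9, 44.3 and 42.2 RPKM with 56Fe, 41.4, 16.6 and 52.7 RPKM with 16O and 24.5, 23.7 and 22.3 RPKM with 28Si, against 37.4, 19.9 and 34.5 RPKM in control mice.

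At 9 months Selenbp2 was again higher with 56Fe and with 16O than in control mice. It had 128.8, 48.7 and 41.5 RPKM with 56Fe, 105.4, 112.1 and 87.6 RPKM with 16O and 50.8, 19.8 and 81.7 RPKM with 28Si, against 35.8, 33.2 and 25.7 RPKM in control mice. The 16O mice lay close together and well above control, the 56Fe mice lay above control with replicate 1 far from the other 2, and the 28Si mice spread over the control values. On the log2 scale irradiated mice differed from control by 1.01 ± 0.37 with 56Fe, 1.68 ± 0.15 with 16O and 0.51 ± 0.45 with 28Si, or 2.02-fold, 3.19-fold and 1.42-fold. Without 56Fe replicate 1 the difference of 56Fe came to 0.51, whereas leaving out any 1 library kept that of 16O between 1.56 and 1.80. Whether the difference at 9 months was smaller with 28Si than with 16O was not tested.

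Selenbp1, in contrast to its paralog, stayed within a narrow range. At 9 months it had 86.8, 82.8 and 86.9 RPKM with 56Fe, 86.6, 84.9 and 75.8 RPKM with 16O and 98.3, 87.5 and 105.5 RPKM with 28Si, against 99.5, 101.4 and 93.8 RPKM in control mice. The 56Fe and 16O mice lay below every control mouse, by a log2 fold change of -0.21 ± 0.09 and -0.27 ± 0.12, and the 28Si mice did not (0.01 ± 0.13). At the other times Selenbp1 overlapped between each ion and control, with log2 fold changes from -0.23 to 0.24. At 1 month, when Selenbp2 was higher with each ion, Selenbp1 had 47.6, 39.0 and 40.5 RPKM with 56Fe, 45.8, 35 and 47.8 RPKM with 16O and 56.8, 35.1 and 38.3 RPKM with 28Si, against 40.7, 46.8 and 57.8 RPKM in control mice. The deviations of the pair from the mean of each time point had a Pearson r of 0.06 over the 60 libraries, given as a description because those libraries share groups and scaling.

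In control mice Selenbp1 lay lowest at 1 and 2 months, where the values overlapped, and highest at 9 months, at 93.8 to 101.4 RPKM, just above the 58.3 to 93.2 RPKM of 12 months. The order of Selenbp2 was another one. Its control values of 1, 9, 12 and 2 months overlapped from one to the next, and those of 4 months, 78.3 to 152.7 RPKM, overlapped only the highest of the mice at 2 months. The level of the paralogs thus did not run in parallel over the times in unirradiated liver either.

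Selenop, the plasma selenium carrier, was higher in irradiated mice at 1 month and lower in several groups later. At 1 month it had 905, 905 and 916 RPKM with 56Fe, 927, 790 and 1009 RPKM with 16O and 1246, 809 and 788 RPKM with 28Si, against 619, 615 and 972 RPKM in control mice. The RPKM as deposited overlapped through control replicate 3, while on the scaled libraries the 56Fe and 16O mice lay above the control mice with log2 fold changes of 0.30 ± 0.15 and 0.37 ± 0.15. With 28Si it was 0.31 ± 0.17 with overlap. At 2 months it had 967, 891 and 978 RPKM with 56Fe, 599, 833 and 1027 RPKM with 16O and 920, 949 and 1332 RPKM with 28Si, against 1096, 1093 and 1051 RPKM in control mice. Only the 56Fe mice lay apart from control on the scaled libraries, by -0.20 ± 0.10.

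From 4 months on, Selenop was near or below the control level. At 4 months it had 1892, 2233 and 1878 RPKM with 56Fe, 1866, 1888 and 1672 RPKM with 16O and 1681, 1194 and 1813 RPKM with 28Si, against 2055, 2205 and 1989 RPKM in control mice. The 16O mice lay below control by -0.19 ± 0.17 and the 28Si mice by -0.36 ± 0.16, but under upper quartile scaling the value of 28Si turned to 0.07. Kupffer cell markers were lower in 28Si than in control mice at the same time, 11 of 11 without overlap, beside 17.1% of all genes tested. Their sum was 88.1 to 110 RPKM with 28Si against 154 to 177 RPKM in control mice. Mitochondrially encoded mRNAs also summed lower, to 10500 to 17300 against 21000 to 27200 RPKM. Erythroid markers (141 to 156 against 177 to 185 RPKM), lymphocyte markers and the nuclear RNAs Malat1 and Neat1 were lower without overlap too. Hepatocyte, sinusoidal endothelial, stellate cell and cholangiocyte markers overlapped with control. The part of all these in the result was not tested.

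At 9 and 12 months Selenop averaged lower with each ion than in control mice. At 9 months it had 2102, 1696 and 1805 RPKM with 56Fe, 2472, 1977 and 1828 RPKM with 16O and 1704, 2155 and 1938 RPKM with 28Si, against 2331, 2150 and 2474 RPKM in control mice. The log2 fold change was -0.33 ± 0.16 with 56Fe without overlap, and -0.17 ± 0.20 with 16O and -0.23 ± 0.24 with 28Si with overlap. At 12 months it had 1644, 1557 and 1827 RPKM with 56Fe, 1579, 1175 and 1741 RPKM with 16O and 1807, 1550 and 1659 RPKM with 28Si, against 2103, 1954 and 1828 RPKM in control mice. The differences of 56Fe (-0.25 ± 0.20) and 16O (-0.32 ± 0.26) came without overlap but were of the size of their standard errors, as was that of 28Si (-0.20 ± 0.19), whose mice overlapped with control on the scaled libraries but not on the RPKM as deposited. Hepatocyte markers at 12 months summed to 29300 to 38500 RPKM with 16O, against 49500 to 52000 RPKM in control mice, without overlap. With 56Fe (44700 to 49600 RPKM) and 28Si (39600 to 50200 RPKM) they overlapped with control. The 16O libraries of 12 months had a mean Spearman correlation with their own group of 0.937, 0.897 and 0.945. The part of these in the result was not tested. In control mice Selenop was lowest at 1 month, then 2 months, and the values of 12, 4 and 9 months overlapped from one to the next.

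Gpx1, the cytosolic peroxidase, differed little between irradiated and control liver. The groups did not overlap in 1 of its 15 comparisons, 28Si at 4 months, where it had 794, 654 and 932 RPKM with 28Si, against 1061, 1118 and 1016 RPKM in control mice. The log2 fold change was -0.36 ± 0.14, which turned to 0.06 under upper quartile scaling. The share of mapped reads in transcripts was also lower there, with a median of 73.3% with 28Si against 81.5% in control mice, and its part in the result was not tested. In the other comparisons Gpx1 ranged from -0.30 ± 0.16 with 28Si at 2 months to 0.28 ± 0.15 with 16O at 1 month. At 9 months it had 1137, 825 and 1157 RPKM with 56Fe, 1324, 1385 and 979 RPKM with 16O and 875, 733 and 1032 RPKM with 28Si, against 1208, 916 and 895 RPKM in control mice, with overlap throughout. Its control level was 329 to 565 RPKM at 1 month and 505 to 652 RPKM at 2 months, and 1016 to 1118 RPKM at 4 months.

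Gpx4, the lipid hydroperoxide reductase, was slightly higher in irradiated mice at 4 months and lower at 9 months. At 4 months it had 184.2, 175.7 and 168.1 RPKM with 56Fe, 186.3, 206.7 and 171.9 RPKM with 16O and 163.8, 149.4 and 196.3 RPKM with 28Si, against 170.6, 164.1 and 158.0 RPKM in control mice. Its log2 fold change was 0.12 ± 0.08 with 56Fe, 0.21 ± 0.11 with 16O and 0.12 ± 0.12 with 28Si. The RPKM as deposited overlapped with 56Fe and with 28Si, and upper quartile scaling gave 0.54 with 28Si.

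At 9 months Gpx4 had 188.9, 174.9 and 170.2 RPKM with 56Fe, 224.1, 213.3 and 179.0 RPKM with 16O and 191.4, 207.6 and 210.9 RPKM with 28Si, against 254.8, 243.5 and 236.1 RPKM in control mice. Every irradiated mouse lay below every control mouse. The log2 fold change was -0.48 ± 0.10 with 56Fe, -0.27 ± 0.14 with 16O and -0.24 ± 0.12 with 28Si, and that of 28Si turned to 0.02 under upper quartile scaling. Mitochondrially encoded mRNAs were lower in the same libraries, at 14300 to 20000 RPKM with 56Fe, 11500 to 17700 RPKM with 16O and 9350 to 16300 RPKM with 28Si, against 20200 to 22200 RPKM in control mice. Kupffer cell markers summed to 169 to 276 RPKM with 56Fe, 130 to 192 RPKM with 16O and 112 to 341 RPKM with 28Si, against 113 to 200 RPKM in control mice. Sinusoidal endothelial markers summed to 84.3 to 115 RPKM with 56Fe, 85.7 to 92.7 RPKM with 16O and 88.5 to 99.2 RPKM with 28Si, against 107 to 134 RPKM in control mice. Stellate cell markers were 95.2 to 99.9 RPKM with 56Fe and 76 to 97.4 RPKM with 28Si, against 101 to 125 RPKM in control mice. Malat1 and Neat1 summed to 294 to 308 RPKM in control mice. They were higher with 56Fe (399 to 475 RPKM) and 16O (309 to 467 RPKM) and lower with 28Si (195 to 277 RPKM). Lymphocyte markers were higher without overlap with 56Fe, and erythroid markers lower with 16O. Hepatocyte and cholangiocyte markers overlapped with control. The part of these in the result was not tested.

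The level of Gpx4 depended more on the time of sampling than on the ion. In control mice it was 38.7 to 68.1 RPKM at 1 month and 52.6 to 62.1 RPKM at 2 months, against 158.0 to 170.6 RPKM at 4 months and 236.1 to 254.8 RPKM at 9 months. The values of 1 and 2 months overlapped, as did those of 4 and 12 months, and those of 9 months lay above the rest. The lower levels at 1 and 2 months came with the smaller share of reads in transcripts given above, and the time points and that share cannot be told apart. At 1, 2 and 12 months irradiated and control mice overlapped, with log2 fold changes from -0.22 ± 0.19 to 0.25 ± 0.18, both with 28Si.

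The share that an isoform holds in its gene was not itself used to choose the genes, although its denominator is the summed RPKM that was, and it was tested across the 5 times. The test, added after the data were seen, was a two-sided exact permutation test of the ion and control labels within each time point, over 15 irradiated and 15 control mice, with Benjamini-Hochberg adjustment over the 30 tests of 10 isoforms and 3 ions. Isoforms of 1 gene share reads, so their shares are estimates of the authors' mapping, and a higher share of one comes with a lower share of another. The library codes carry a letter of their own for each ion and for control, and sample numbers of control libraries recur within each ion. Whether ion and control libraries were prepared and sequenced together is not given. A difference between library series could recur at every time, and neither this test nor limma can tell it apart from the ion. The adjusted p was at most 0.05 in 13 of the 30 tests, those of Selenbp2 included. The shares of Selenbp2 are given as a description with no p, since its low level in control mice was in view when the gene was chosen.

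The share of Gpx4-207, a shorter isoform with 6 exons that keeps the selenocysteine codon, was lower in 28Si than in control mice. It was 5.66% ± 3.60 of the Gpx4 RPKM in 28Si mice, against 16.5% ± 5.39 in control mice (SD, n = 15 each), a difference of -10.9 percentage points (exact permutation test, adjusted p = 9.38e-05). The mean was lower at 5 of 5 times, and the mice did not overlap at 3 of them. At 1 month the share was 4.8%, 0.0% and 2.0% in 28Si mice, against 16.3%, 15.1% and 16.4% in control mice. At 9 months it was 1.0%, 6.2% and 5.4% in 28Si mice, against 14.6%, 21.7% and 14.9% in control mice. The main isoform Gpx4-202, with 7 exons, held 92.5% ± 3.83 in 28Si mice, against 81.0% ± 5.53 in control mice, a difference of 11.5 percentage points (exact permutation test, adjusted p = 9.38e-05). With 56Fe (17.1% ± 8.09) and 16O (16.7% ± 5.55) the share of Gpx4-207 differed from control by 0.52 and 0.15 points, which the exact permutation test did not separate (adjusted p = 0.958 and 0.974). Gpx4-202 and Gpx4-207 hold the same selenocysteine codon, the one printed above.

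In Gpx1 the share of Gpx1-201, the isoform annotated with the selenocysteine codon in its coding sequence, was lower with 56Fe. It was 40.5% ± 18.2 in 56Fe mice, against 47.4% ± 21.6 in control mice, with a difference of -6.99 percentage points and a lower mean at 5 of 5 times (exact permutation test, adjusted p = 0.0006). At 4 months it was 61.1%, 58.6% and 56.3% in 56Fe mice, against 63.9%, 67.0% and 66.7% in control mice. At 9 months it was 54.8%, 51.5% and 44.9% in 56Fe mice, against 67.6%, 66.3% and 62.8% in control mice. With 16O the share was 43.6% ± 20.8, lower by -3.83 points (exact permutation test, adjusted p = 0.0333), a call that was lost in 7 of the 30 fits without 1 library, up to an adjusted p of 0.14.

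With 28Si Gpx1-201 was higher at 1, 2 and 9 months. Its share was 53.4%, 43.7% and 35.3% in 28Si mice at 1 month, against 22%, 18% and 23.4% in control mice, and 42%, 43.2% and 37.2% in 28Si mice at 2 months, against 22.8%, 24.2% and 23.8% in control mice. At 9 months it was 67.7%, 78.6% and 70.1% in 28Si mice, against 67.6%, 66.3% and 62.8% in control mice. Every 28Si mouse lay above every control mouse at these 3 times. At 4 and 12 months the mean was lower with 28Si, and over all times the difference of 7.1 percentage points missed the threshold (exact permutation test, adjusted p = 0.054), while it passed on estimated reads (adjusted p = 0.0336). The share of Gpx1-202, whose annotated coding sequence starts after the selenocysteine codon, was 58.9% ± 18.2 with 56Fe (adjusted p = 0.0006), 55.9% ± 20.9 with 16O (adjusted p = 0.0312) and 44.2% ± 13.5 with 28Si (adjusted p = 0.0312), against 52.1% ± 21.6 in control mice, by the same exact permutation test. The calls of 16O and 28Si were lost in 4 and 3 of the 30 fits without 1 library. The wide SD came from time, since Gpx1-201 held 18% to 24.2% in control mice at 1 and 2 months and 52.5% to 70.0% later, and the share of mapped reads in transcripts was higher at the later times too.

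Selenop-203, which is 2085 bases long against 2013 bases for Selenop-201 and has the same coding length, held a larger share with 56Fe and with 28Si than in control mice. It held 71.6% ± 3.42 in 56Fe mice (adjusted p = 0.00622) and 72.0% ± 7.59 in 28Si mice (adjusted p = 0.0137), against 65.6% ± 5.37 in control mice, with a higher mean at 5 of 5 times for each ion by the exact permutation test. With 16O it held 65.6% ± 6.57, a difference of 0.08 points that the exact permutation test did not separate (adjusted p = 0.974). The share of Selenop-201 moved the opposite way, by -6.13 points with 56Fe and -6.43 points with 28Si.

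In Selenbp2 the full-length isoform Selenbp2-201 held 77.0% ± 5.23 in 56Fe mice, against 62.0% ± 15.1 in control mice, 15 percentage points more. The short isoform Selenbp2-205, of 477 bases, held 3.40% ± 3.34 in 56Fe mice, against 13.8% ± 16.6 in control mice. The share of Selenbp2-201 was higher with 56Fe without overlap at 1, 4, 9 and 12 months and lower on average at 2 months. At 1 month it was 76.6%, 76.8% and 74.1% in 56Fe mice, against 56.9%, 60.7% and 67.8% in control mice. At 4 months it was 85.3%, 84.9% and 84.3% in 56Fe mice, against 68.5%, 72.0% and 79.0% in control mice. The short isoform differed without overlap at the late times. At 9 months Selenbp2-205 held 1.3%, 9.7% and 10.2% in 56Fe mice, against 13%, 28.9% and 50.4% in control mice. At 12 months it held 8.2%, 1.6% and 4.0% in 56Fe mice, against 44.5%, 18.3% and 27% in control mice. Single mice of the other ions also reached high shares, such as 64.8% in 16O replicate 2 at 12 months, the library with the lowest agreement with its own group. In Selenbp1 the isoform Selenbp1-201 held 94.6%, 95.2% and 95.9% with 56Fe, 16O and 28Si, against 94.8% in control mice, and no exact permutation test of it passed (adjusted p = 0.928, 0.897 and 0.225).

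**Figure D3:**
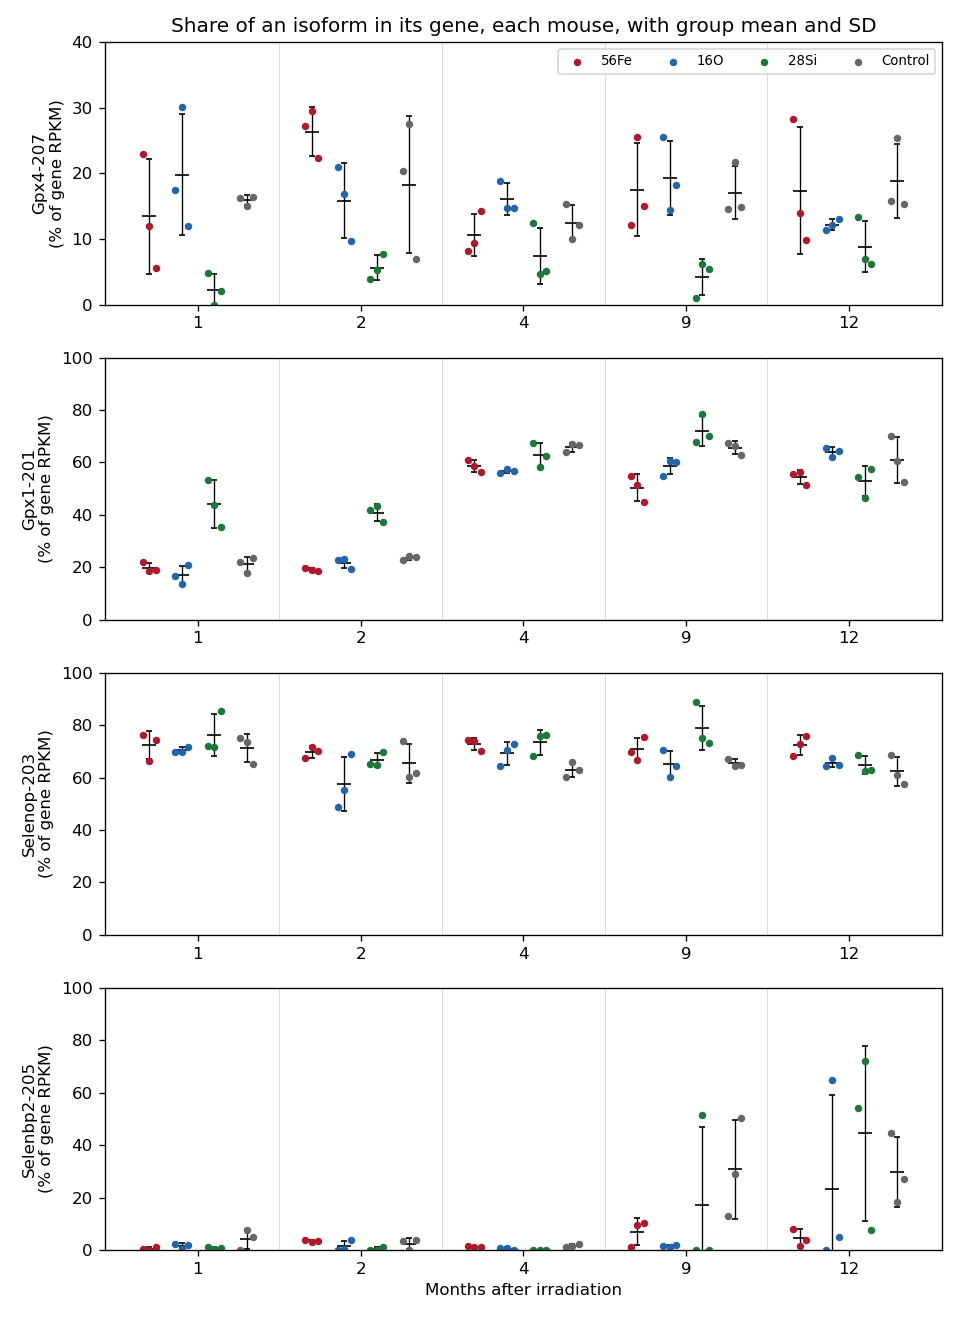
Percent of a gene's RPKM held by Gpx4-207, Gpx1-201, Selenop-203 and Selenbp2-205 (vertical axes) against months after irradiation, where each point is 1 mouse, horizontal bars are means and error bars 1 SD of 3 mice, in the order 56Fe, 16O, 28Si and control. The 28Si mice lie at 0.0% to 13.3% for Gpx4-207 over all times, against 7.0% to 27.6% in control mice, and at 35.3% to 53.4% for Gpx1-201 at 1 and 2 months, against 18% to 24.2%.

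The genes whose pattern was most like each member were searched among 5920 genes with a mean of at least 5 RPKM, by the Pearson r of deviations from the mean of each time point over the 60 libraries. The libraries share groups, depth and scaling, so r is a description. Selenbp2 was most like Cyp7b1 (r = 0.763), an oxysterol hydroxylase that is more active in male than in female mouse liver, and Lifr (r = 0.743), the receptor of leukaemia inhibitory factor, and then Abhd17b (r = 0.658), a depalmitoylase. Selenbp1 was most like Fah (r = 0.754) and Gstz1 (r = 0.739), enzymes at the end of tyrosine breakdown, and Coq9 (r = 0.735), a coenzyme Q biosynthesis factor. Selenop was most like Rnf128 (r = 0.822), Manea (r = 0.815) and Tmco1 (r = 0.80). Gpx1 was most like Prelid1 (r = 0.812), Chchd10 (r = 0.801) and Amacr (r = 0.80), and Gpx4 like Psmd8 (r = 0.80), Rer1 (r = 0.80) and Rnf130 (r = 0.775). Among the 5 genes themselves r was 0.573 for Selenop and Gpx1, 0.515 for Selenop and Gpx4 and 0.042 for Selenbp2 and Gpx4.

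Cyp7b1 was singled out for its likeness to Selenbp2 over these libraries, so its values are given with no test. At 1 month Cyp7b1 had 162, 174 and 211 RPKM with 56Fe, 155, 205 and 336 RPKM with 16O and 288, 160 and 181 RPKM with 28Si, against 94.1, 85.6 and 193 RPKM in control mice. As in Selenbp2, 16O replicate 3 was the highest and control replicate 3 the highest of its group. At 9 months Cyp7b1 had 411, 348 and 317 RPKM with 56Fe, 472, 511 and 377 RPKM with 16O and 256, 174 and 251 RPKM with 28Si, against 271, 142 and 133 RPKM in control mice. Every 56Fe and 16O mouse lay above every control mouse at 9 months, and the 28Si mice overlapped with control. The log2 fold change was 1.04 ± 0.25 with 56Fe and 1.37 ± 0.25 with 16O.

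Genes known as female-predominant in mouse liver were high in the control mice of 9 months, in which Selenbp2 was low. Cyp2b9, a steroid-metabolising cytochrome, had 0.0552, 0.0546 and 0.190 RPKM with 56Fe, 0.102, 0.141 and 0.0637 RPKM with 16O and 0.446, 2.68 and 1.87 RPKM with 28Si, against 3.38, 19.7 and 13.8 RPKM in control mice. At 1, 2 and 4 months Cyp2b9 was at most 0.20 RPKM in every control mouse, and at 12 months the 28Si mice, with Selenbp2 at 22.3 to 24.5 RPKM, had 17.2, 18.8 and 2.90 RPKM, against 2.95, 0.391 and 1.23 RPKM in control mice. Low Selenbp2 did not always come with high Cyp2b9. In control mice at 1 month Selenbp2 was 17.7 to 40.5 RPKM with Cyp2b9 at 0.153 to 0.20 RPKM, and at 12 months 16O replicate 2, with 16.6 RPKM of Selenbp2, had 0.158 RPKM of Cyp2b9. Hao2, a hydroxyacid oxidase, was also highest in control mice at 9 months, with 0.0505, 0.05 and 0.406 RPKM with 56Fe, 0.124, 0.0646 and 0.175 RPKM with 16O and 0.381, 0.0744 and 0.393 RPKM with 28Si, against 1.13, 3.77 and 2.51 RPKM in control mice at 9 months. Of the 17 female-predominant genes listed, 7 passed the filter on low values at 9 months with 56Fe, 7 with 16O and 8 with 28Si, several of them through the high control mice. Such a gene had to differ, so no p, count of calls or median over them is given for that time.

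As a description on the log2(RPKM + 0.1) scale, Cyp2b9 had a log2 fold change of -5.71 ± 0.58 with 56Fe and -5.64 ± 0.54 with 16O at 9 months. Cyp2a4, another steroid-metabolising cytochrome, had -5.16 ± 0.62 with 56Fe and -5.49 ± 0.55 with 16O, and Hao2 had -3.39 ± 0.55 with 56Fe and -3.43 ± 0.41 with 16O. Without 1 control library these 3 genes did not pass the filter. The acyl-CoA thioesterase Acot3 had 0.216, 0.247 and 0.577 RPKM with 56Fe and 0.794, 0.276 and 0.613 RPKM with 16O, against 3.48, 5.77 and 10.5 RPKM in control mice, a log2 fold change of -3.87 ± 0.41 with 56Fe and -3.30 ± 0.42 with 16O. For Cyp3a44 it was -2.37 ± 0.48 with 56Fe and -2.01 ± 0.32 with 16O, and for Slc22a26 -1.86 ± 0.36 with 16O.

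**Figure D4:**
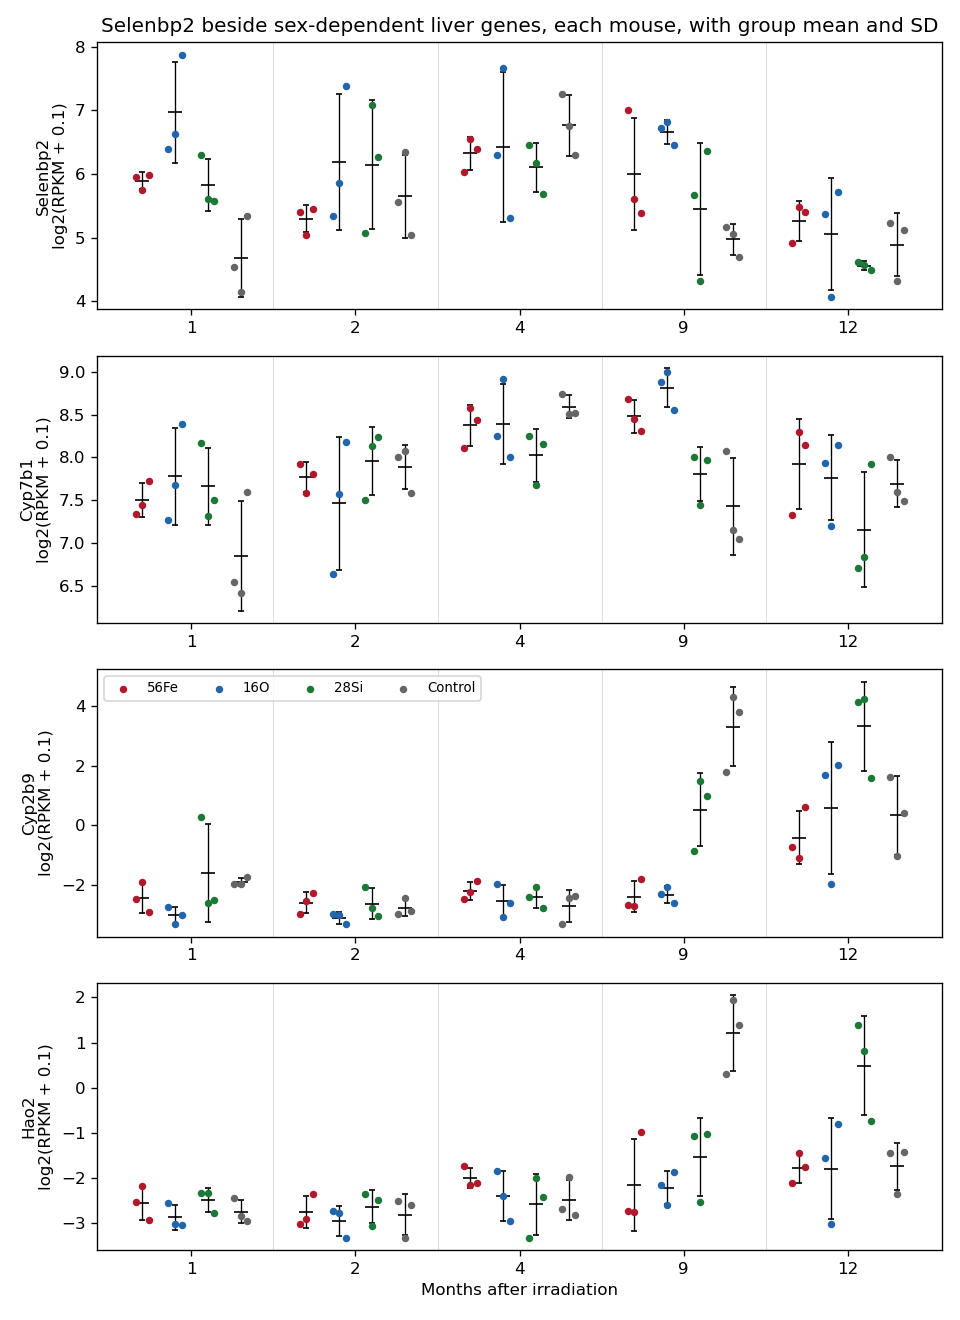
Log2(RPKM + 0.1) as deposited (vertical axes, a log2 scale) of Selenbp2, Cyp7b1, Cyp2b9 and Hao2 against months after irradiation, where each point is 1 mouse, horizontal bars are means and error bars 1 SD of 3 mice, in the order 56Fe, 16O, 28Si and control. At 9 months the control mice are lowest in Selenbp2 but for 1 28Si mouse and highest in Cyp2b9 and Hao2.

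Of 18 male-predominant genes listed, 17 passed the filter in each comparison. With 28Si at 1 month, when Selenbp2 was higher with each ion, 17 of the 17 were higher on average. Their median log2 fold change was 0.44. Of the 17, 8 lay higher without overlap and 10 had an unadjusted p under 0.05 in limma, but 1 passed the adjusted test. Of all 11059 genes tested in that comparison, 1883 did not overlap in either direction and 1386 had an unadjusted p under 0.05. At that month 13 of 17 were higher with 56Fe (median 0.10) and 13 with 16O (median 0.26). By limma, C6, a terminal complement component, and Gstp1, a glutathione transferase, rose with 56Fe at 9 months by 0.79 ± 0.17 and 1.04 ± 0.21 (adjusted p = 0.0458 and 0.0391), C8b, another terminal complement component, rose with 16O by 0.82 ± 0.15 (adjusted p = 0.0442), and Mup21, a major urinary protein gene whose family shares reads, rose with 56Fe at 1 month by 0.79 ± 0.16 (adjusted p = 0.0438). These 4 calls were lost in 5, 3, 5 and 5 of 6 fits without 1 library. In limma-voom members of the list were also lower at 9 months, Mup3 with 56Fe (-0.63, adjusted p = 0.031) and Cyp4a12a with 16O (-1.005, adjusted p = 0.0412). Cyp7b1 aside, limma-voom called C6, C8b and Gstp1 higher with 56Fe at that time, and C8b and Gstp1 with 16O. The median of the list ran from -0.30 to 0.44 over the 15 comparisons. Elovl3, a fatty acid elongase, had 143, 125 and 99.9 RPKM with 28Si at 1 month, against 37, 30.1 and 59.6 RPKM in control mice, and rose by 1.53 ± 0.18 (limma, adjusted p = 0.00727, kept in 6 of 6 fits without 1 library). On the RPKM as deposited the adjusted p was 0.0504. At 4 months it had 165, 126 and 93.9 RPKM with 56Fe, against 44.3, 45.3 and 40.5 RPKM in control mice, and rose by 1.55 ± 0.18 (limma, adjusted p = 0.0147), which was lost without 56Fe replicate 2 (adjusted p = 0.101). With 56Fe at 1 month Elovl3 was lower without overlap, by -0.84 ± 0.19 (limma, adjusted p = 0.0605), while Selenbp2 was higher.

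The other genes of selenium and redox metabolism and the sex-dependent genes were put to the test across all genes. Beside 1.33%, 0%, 0.453%, 3.65% and 0% of all genes tested that passed limma with 56Fe at 1, 2, 4, 9 and 12 months (1412, 1300, 1351, 3022 and 362 at an unadjusted p under 0.05), the listed genes outside the 5 gave 16 calls. With 16O the background was 1.52%, 0%, 0%, 1.04% and 0.00879% (1444, 1039, 709, 1694 and 242 at an unadjusted p under 0.05) and the lists gave 10 calls, and with 28Si it was 0.271%, 0.126%, 0.374%, 0.142% and 0.0176% (1386, 856, 1296, 1352 and 849) and the lists gave 1. Each count is over 88 to 97 listed genes tested at each of 5 times, the sex-dependent genes above included, which held most of the calls. Without them the lists gave 7 calls in 354 tests with 56Fe (1.98%, beside 1.09% over all genes and times) and 1 in 354 with 16O (0.282%, beside 0.513%), and the call of 28Si was Elovl3. Without the sex-dependent genes 1 call rose and 6 fell with 56Fe, and the 1 call with 16O fell. The full counts take in female-predominant genes of 9 months, several of which had to differ, so nothing is read from their direction. Over all calls 5 rose and 11 fell with 56Fe, 3 rose and 7 fell with 16O and 1 rose with 28Si. Upper quartile scaling gave 6 and 7 with 56Fe, 7 and 10 with 16O, and 23 that rose and none that fell with 28Si. An ion effect that differed between times was found by the F test over the 60 libraries in 1.02%, 0.594% and 0.0469% of all genes for 56Fe, 16O and 28Si, and the genes described here were not put to that test. A p-value of limma sets a difference of group means against the spread between the mice of these groups, moderated over all genes. The F test pools that spread over the 20 groups.

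Among the 21 other selenoprotein genes, of which 15 to 17 passed the filter, 1 call was made in 15 comparisons, Selenot, which is singled out after its value was seen. This thioredoxin-like selenoprotein of the endoplasmic reticulum had 56.7, 49.5 and 58.1 RPKM with 56Fe at 9 months, against 76.3, 75.4 and 65.2 RPKM in control mice, and fell by 0.42 ± 0.09 (limma, adjusted p = 0.0457, lost without any 1 library other than control replicate 3). The medians of the list stayed between -0.12 and 0.14 over the comparisons. For selenocysteine synthesis and insertion, 11 of 12 genes were tested and none passed limma in any of 15 comparisons, nor limma-voom, with 0 to 4 at an unadjusted p under 0.05 per comparison. Of the 7 listed regulators of hepatic Selenop none passed limma either, with 0 to 4 at an unadjusted p under 0.05, and limma-voom made 1 call, Cebpa with 56Fe at 2 months.

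Among 9 genes of selenium uptake and turnover 7 were tested. Cth, cystathionine gamma-lyase, had 89.5, 70.4 and 84.3 RPKM with 56Fe at 1 month, against 104.6, 108.9 and 150.1 RPKM in control mice, and fell by 0.60 ± 0.13 (limma, adjusted p = 0.0467), a call kept only without control replicate 3. Lrp1, a lipoprotein receptor, had 147, 165 and 181 RPKM with 56Fe at 9 months, against 88.7, 78.7 and 115 RPKM in control mice, and rose by 0.80 ± 0.16 (limma, adjusted p = 0.0376), a call kept only without 56Fe replicate 3 or control replicate 3. Neither gene passed with another ion or at another time.

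Among the 25 glutathione and peroxide partners 20 were tested. At 9 months with 56Fe the median log2 fold change of the list was -0.25, with 14 genes at an unadjusted p under 0.05. In that comparison 31.6% of all 11355 genes tested did not overlap and 3.65% passed limma, the highest shares of any ion and time. The number of all genes at that unadjusted p, given above, was also the largest. Gclc, the catalytic subunit of glutathione synthesis, had 57.4, 57.1 and 85.2 RPKM with 56Fe, against 99.1, 97 and 92.9 RPKM in control mice, and fell by 0.57 ± 0.13 (limma, adjusted p = 0.0498, kept only without 56Fe replicate 3). At other times Gclc was higher, by 0.69 ± 0.14 with 56Fe at 4 months and 0.70 ± 0.14 with 28Si at 1 month, without overlap, which missed the threshold in limma (adjusted p = 0.0818 and 0.0939) and passed in limma-voom (adjusted p = 0.0467 and 0.042). Prdx3, the mitochondrial peroxiredoxin, singled out after its value was seen, had 52.9, 47 and 55.1 RPKM with 56Fe, against 75.9, 74.1 and 66.5 RPKM in control mice, and fell by 0.50 ± 0.09 (limma, adjusted p = 0.0323, kept only without 56Fe replicate 3 or control replicate 3). The falls of Gclc and Prdx3 came at the time and with the ion at which Gpx4 was lowest relative to control.

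Among 12 ferroptosis partners of Gpx4 10 were tested. Tfrc, the transferrin receptor that brings iron into cells, had 4.43, 3.57 and 3.75 RPKM with 56Fe and 4.81, 6.03 and 5.43 RPKM with 16O at 1 month, against 10, 9.16 and 9.87 RPKM in control mice. It fell by 1.33 ± 0.14 with 56Fe (limma, adjusted p = 0.000906), which held in 6 of 6 fits without 1 library (highest adjusted p = 0.0103), and fell by 0.80 ± 0.15 with 16O (adjusted p = 0.0308), which was kept only without 16O replicate 2 or control replicate 3 and was lost under upper quartile scaling (adjusted p = 0.0713). With 28Si Tfrc had 9.92, 6.23 and 11.4 RPKM at 1 month. At 2 months Tfrc was higher with 56Fe, with 6.34, 7.64 and 9.18 RPKM against 4.30, 5.45 and 4.41 RPKM in control mice, by 0.69 ± 0.16 (limma, adjusted p = 0.21), which passed in limma-voom (adjusted p = 0.0468). Nfe2l2, the regulator of the antioxidant response, had 13, 11.9 and 17.4 RPKM with 56Fe at 9 months, against 21.6, 21.4 and 22.7 RPKM in control mice, and fell by 0.67 ± 0.12 (limma, adjusted p = 0.0346, kept only without 56Fe replicate 3 or control replicate 3). Fmo2, a flavin monooxygenase of the female-predominant list, had 5.58, 2.58 and 3.71 RPKM with 16O at 1 month, against 1.84, 1.54 and 1.45 RPKM in control mice, and rose by 1.22 ± 0.25 (limma, adjusted p = 0.0481, kept only without 16O replicate 2).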

How the data were processed

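RNA of the left liver lobe was freed of ribosomal RNA and sequenced as paired reads of 50 bases. The authors trimmed the reads, 14 bases of the start included, mapped them at 95% length and similarity to GRCm38, annotation 97, using CLC Genomics Workbench 12.0.3, and deposited RPKM per transcript and library, with edgeR as their own test on raw counts. Here the 123811 transcripts were summed to 38204 genes by name. The 20 columns of the authors' group means were not used.

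Libraries were scaled by a trimmed mean (30% of ratios, 5% of levels). Genes with at least 0.5 RPKM in 3 libraries of a fit were tested with limma 3.58.1 in R 4.3.3 on log2(RPKM + 0.1), 3 irradiated against 3 control mice at each time, with Benjamini-Hochberg adjustment over all genes and a threshold of 0.05. The added 0.1 makes fold changes of genes with few reads too small. An F test over 60 libraries compared an ion effect between times. Reads were estimated from RPKM, length and mapped pairs, and 99.8% to 100.0% of values up to 30 reads were whole within 0.02. They served limma-voom as an alternative, for genes with at least 10 reads in 3 libraries. The fits were tested on simulated data. The exact permutation test of isoform shares, for isoforms of at least 5% of a gene, was added after the data were seen.

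The genes and all lists were chosen with earlier results of these data known. List genes past the threshold were named, or the 10 with the largest change where more passed, with the 3 genes of most similar pattern for each gene. Alternatives were other scalings, pseudocounts and filters, a replicate block, 1 fit over all libraries and leaving out each library. Same-numbered mice deviated together, with every correlation over 0.1, only for 16O at 12 months (lowest 0.252). No label ties the numbers to a litter or day, so they were not treated as pairs elsewhere. Replicates were separate mice, and the highest Spearman correlation of any 2 libraries was 0.991.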

Additional observations from a re-analysis of the deposited data

Results flagged for a closer look

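On the scaled libraries Selenop and Gpx4 differed from control in opposite directions at different times. Each time the 3 irradiated and the 3 control mice did not overlap, as for 7.92% to 31.6% of all genes in a comparison. On the RPKM as deposited Selenop with 56Fe and 16O at 1 month and Gpx4 with 56Fe and 28Si at 4 months overlapped. Several differences were of the size of their standard errors, such as 0.116 ± 0.12 for Gpx4 with 28Si at 4 months. The log2 fold change of Selenop with 56Fe was 0.304 at 1 month, -0.195 at 2 months, -0.33 at 9 months and -0.248 at 12 months. With 16O it was 0.366 at 1 month, -0.185 at 4 months and -0.32 at 12 months. The log2 fold change of Gpx4 was 0.122 at 4 months and -0.475 at 9 months with 56Fe, 0.213 and -0.274 at these times with 16O, and 0.116 and -0.235 with 28Si, where upper quartile scaling turned the value of 9 months to 0.02. The difference between times was not tested for these genes.

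Among the listed genes outside the 5, the effect of an ion differed between times by the F test over the 60 libraries (limma) in 8 cases. With 56Fe these were Cyp2b9 (adjusted p = 0.00166), Hao2 (adjusted p = 0.00505) and Tfrc (adjusted p = 0.0324). With 16O they were Cyp2b9 (adjusted p = 0.00334), Gss (adjusted p = 0.0106), Hao2 (adjusted p = 0.0111) and Fmo2 (adjusted p = 0.0255). With 28Si it was Hao2 (adjusted p = 0.00308). Cyp2b9 and Hao2, 5 of the 8 cases, were near 0 in most groups and entered the fit through the few groups where they were high, the control mice of 9 months among them, so their p-values are no independent evidence. Gss, glutathione synthetase, had 26.1, 35.6 and 34.8 RPKM with 16O at 9 months, against 20.2, 23.2 and 21.8 RPKM in control mice, and 16.4, 12.8 and 18.6 RPKM with 16O at 12 months, against 26.2, 22.5 and 28.9 RPKM in control mice.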

How the results depend on the processing

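Calls of the listed genes outside the 5 by limma, each a gene at a time, numbered 16 with 56Fe, 10 with 16O and 1 with 28Si. These counts and those below include the female-predominant genes of 9 months, several of which had to differ. With 56Fe the number was 8 on the RPKM as deposited, 5 with no filter, 27 with limma-voom and 2 to 21 without 1 library (2 without 56Fe replicate 2, 21 without control replicate 3). With 16O it was 17 under upper quartile scaling, 4 with no filter, 4 with at least 1 RPKM in all libraries and 1 to 6 without 1 library (1 without control replicate 2). With 28Si it was 23 under upper quartile scaling, 2 with limma-voom, 4 with 1 fit over all 60 libraries and 1 to 5 without 1 library (5 without control replicate 3). The replicate block gave 18, 16 and 2 calls. It ended the calls of Gclc (adjusted p = 0.0624) and Selenot (0.068) with 56Fe at 9 months and of C8b (0.0616) and Slc22a26 (0.0703) with 16O at 9 months, and no other. Pairs of a gene and a time without overlap, 9, 8 and 5 for 56Fe, 16O and 28Si, came to 5 with 56Fe and 5 with 16O under upper quartile scaling, and to 9 to 15, 9 to 13 and 7 to 10 without 1 library, where fewer mice overlap less easily. Cases of a gene and an ion with an effect that differed between times went to 5 at a pseudocount of 0.01 and to 2 with at least 1 RPKM in all libraries, against 8. Isoform shares past the threshold numbered 14 on estimated reads and 11 to 14 without 1 library, against 13. The log2 fold changes of the 5 genes moved by less than the spread of the mice in 721 alternative values and by more in 29, and without 1 library in 449 and 1, and changed sign in 14, 4, 13, 25 and 12 of 240 for Selenbp1, Selenbp2, Selenop, Gpx1 and Gpx4. No call turned its direction. The cause of these changes was not tested. With 3 mice a group, differences of the size of the standard errors given were not detectable.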
